A study of Mus musculus with 9 samples.

Results

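Motile cilia are the beating hairs of ciliated airway cells, and their microtubule core is called the axoneme. Many of the genes described here build the axoneme or switch on its genes, but a gene's name does not show that it does so in airway cells. The set was taken by name: every row of the deposited expression table whose symbol starts with Dnah, Dnai, Cfap, Rsph or Tekt followed by a digit, plus Foxj1, Sntn, Dynlrb2, Tppp3, Ccdc39, Ccdc40 and Hydin. The rule gave 68 genes, of which 66 were above 0 in at least 1 library, out of 52381 genes in the table and 24691 above 0. Cfap97d1 and Rsph6a were listed at 0 in every library and left out. The member just inside that limit was Cfap99, with 0.05 FPKM in TMAO replicate 1, 0.07 FPKM in LPS-ALI replicate 1 and 0 elsewhere. No symbol with the Dnai prefix was found, because the axonemal dynein intermediate chains carry the symbols Dnaic1 and Dnaic2 in this table.

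Gene expression was measured by RNA sequencing of mouse lung, as FPKM, the fragments of a gene scaled to its length and to the library's total. The TMAO group held 5 mice whose lungs had been injured with LPS, the lipopolysaccharide of bacterial outer membranes, and which received TMAO (trimethylamine N-oxide), formed in the liver from trimethylamine that gut bacteria release. The LPS-ALI group held 4 mice with the same acute lung injury (ALI) and no TMAO. All 9 mice therefore carried the injury, and uninjured lungs are not analysed here. The sources used here give no strain, age, dose, route or time. Each library was labelled as a separate mouse. The tissue label says lung while the extraction text speaks of platelets, and markers of the alveolar and airway epithelium were abundant in all 9 libraries.

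Ciliated cells share the conducting airways with secretory club cells and goblet cells, and their beating moves mucus and trapped particles out of the lung. Each motile cilium is powered by dynein arms, which bend the axoneme by making its doublet microtubules slide. Radial spokes and a central pair of microtubules control the arms, and a nexin-dynein regulatory complex links the doublets. Foxj1 is the transcription factor that switches on the genes of motile cilia, together with factors of the RFX family. Whole lung was sequenced, so fewer ciliated cells and less RNA per ciliated cell cannot be told apart.

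The libraries were not alike in ways the groups do not explain. Relative sequencing depth, read from the spacing of low values, was 0.682, 0.624, 0.683, 0.655 and 0.382 in TMAO replicates 1 to 5, against 0.496, 0.752, 1 and 0.769 in LPS-ALI replicates 1 to 4. The sample codes begin with X in LPS-ALI replicates 3 and 4 and with B in the other 7 libraries. The sources used here do not say what the codes stand for, and no TMAO library is coded X. TMAO replicate 5 was the shallowest library, with 8846 genes of at least 1 FPKM against 11158 to 12239 in the others. Alveolar type 2 markers summed to 1295 FPKM in LPS-ALI replicate 4 and to 4929 to 14804 FPKM in the other 8 libraries. Absolute depth is unknown, so counting intervals are not given.

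Many motile cilia genes stood highest in the LPS-ALI libraries coded X, and without those libraries the differences between TMAO and LPS-ALI lungs were smaller. In 32 of the 66 members both X-coded libraries lay above all 7 other libraries, a pattern found in 5.01% of all genes above 0. Of the members tested below it held for 8 of 21, against 4.54% of all genes tested. The other 24 of the 32 were too low to be tested, and some of them qualified by a margin as small as the rounding. Hydin, for example, had 0.05 FPKM in LPS-ALI replicate 3 and 0.04 FPKM in LPS-ALI replicate 2. Without TMAO replicate 5, the shallowest library, the count was 36 of 66, against 5.39% of all genes. The summed level of the 66 members was 174, 221, 154, 245 and 151 FPKM in TMAO replicates 1 to 5, against 244, 189, 312 and 456 FPKM in LPS-ALI replicates 1 to 4. The groups overlapped, and the values above 300 FPKM were those of LPS-ALI replicates 3 and 4. The group means were 189 ± 41.9 FPKM in TMAO lungs and 300.3 ± 115 FPKM in LPS-ALI lungs (SD, n = 5 and n = 4), a difference of -111 FPKM. Without the X-coded libraries that difference was -27.1 FPKM. Abundant members weigh most in the sum, with means over the 9 libraries of 64.8 FPKM for Tppp3, 32.2 for Rsph3b and 23.2 for Dynlrb2. Of these, only Dynlrb2 had both X-coded libraries highest.

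**Figure D1:**
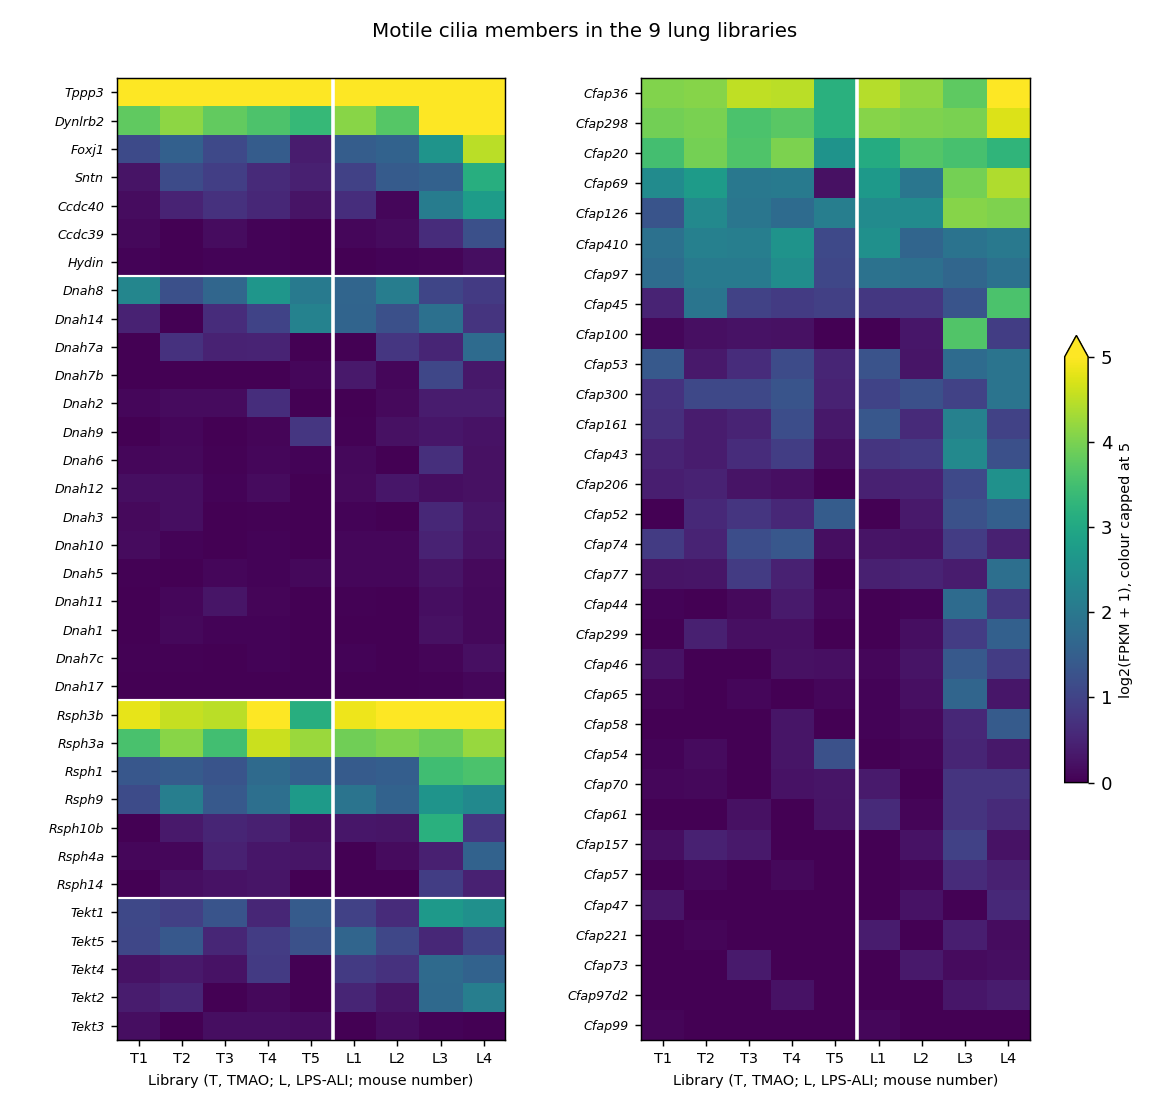
Level of each of the 66 members, as log2(FPKM + 1) with the colour capped at 5, in TMAO replicates 1 to 5 (T1 to T5) and LPS-ALI replicates 1 to 4 (L1 to L4). White lines separate the groups and the gene families, and the 2 columns at the right of each panel, L3 and L4, are the X-coded libraries in which 32 members were highest.

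No member passed the test between the groups. Of the 66 members, 21 reached 1 FPKM in at least 4 libraries and were tested, with limma on log2(FPKM + 1) across all 11817 such genes. The count of members past an adjusted p of 0.05 was 0, and so was that of all genes tested (0%). The adjusted p of each tested member was 0.998. By an unadjusted limma p under 0.05, 6 members were lower and 0 higher in TMAO lungs, where the shares over all genes tested were 2.93% lower and 0.423% higher. Those 6 were Cfap126, Sntn, Foxj1, Dynlrb2, Cfap69 and Rsph1, and each had its highest pair of values in the X-coded libraries. Since 45 members were too low to be tested, the tested members do not stand for the whole set. A gene high in LPS-ALI lungs alone could have passed this limit. All 21 tested members did reach 1 FPKM in at least 1 library of each group, and 20 of them in at least 2 TMAO libraries. Over all 66 members the mean log2 value was lower in TMAO lungs for 59, against 64.7% of all genes above 0. Without the X-coded libraries it was lower for 37 members, against 58% of all genes.

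The median gene itself differed by -0.17 on the log2 scale between TMAO and LPS-ALI lungs, and by 0.05 without TMAO replicate 5. Differences below are therefore given relative to that median unless called unshifted. The limma and permutation p-values printed beside them test the unshifted difference, which for Dnah8 was 0.56 where the relative one was 0.73. All of them are TMAO minus LPS-ALI on the log2(FPKM + 1) scale, which understates the change of low genes. The median difference of the 21 tested members was -0.32, and 0.04 without the X-coded libraries. A score per library, the average log2 level of the 21 against the median gene of that library, was -0.47, -0.55, -0.60, -0.77 and 0.32 in TMAO replicates 1 to 5, against -0.44, -0.46, 0.20 and 0.39 in LPS-ALI replicates 1 to 4. On this score TMAO replicate 5, the shallowest library, lay above X-coded LPS-ALI replicate 3. Its summed level of 151 FPKM was nevertheless the lowest of all libraries. Of the 21, 15 lay below the median gene, as 50% of all genes tested do by construction, and 10 did without those libraries.

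Foxj1, the master regulator, was the marker chosen for ciliated cells. Its level was 1.18, 1.89, 1.14, 1.75 and 0.30 FPKM in TMAO replicates 1 to 5, against 1.79, 1.96, 5.04 and 21.32 FPKM in LPS-ALI replicates 1 to 4. LPS-ALI replicate 4 stood far above the rest, replicate 3 came next, and the other LPS-ALI libraries lay at the upper end of the TMAO values. The difference was -1.24 ± 0.52 (SE; unshifted -1.41, exact two-sided permutation p = 0.0159, limma adjusted p = 0.998). Without the X-coded libraries the unshifted difference was -0.40 and the exact permutation p was 0.286, in a comparison where the smallest possible is 0.0476. Without LPS-ALI replicate 4 alone they were -0.76 and 0.0536, and without any of TMAO replicates 1, 3, 4 or 5 the exact permutation p was 0.0571. The gene (ENSMUSG00000034227) is on the minus strand of chromosome 11, bases 116330704 to 116335399 in GRCm38.

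Sntn encodes sentan, a protein at the tip of motile cilia. Its level was 0.20, 1.2, 0.90, 0.52 and 0.36 FPKM in TMAO lungs, against 0.96, 1.69, 1.94 and 7.83 FPKM in LPS-ALI lungs, in replicate order. As for Foxj1, LPS-ALI replicate 4 was highest, but replicate 3 exceeded replicate 2 only slightly. The difference of -0.93 ± 0.39 did not pass the test (limma adjusted p = 0.998, unadjusted exact permutation p = 0.0159) and was -0.31 without the X-coded libraries (unadjusted exact permutation p = 0.190). Dynlrb2, a roadblock-type dynein light chain, had 12.66, 16.64, 12.97, 11.15 and 9.25 FPKM in TMAO replicates 1 to 5. In LPS-ALI replicates 1 to 4 it had 16.19, 11.85, 57.36 and 60.82 FPKM. Here the X-coded libraries were alike and both at least 2-fold above every other library. The Dynlrb2 difference of -0.996 ± 0.47 (limma adjusted p = 0.998) turned to 0.06 without them.

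Tppp3, a tubulin polymerization-promoting protein with the highest level of all members, behaved otherwise. It had 54.74, 81.01, 32.31, 65.72 and 63.65 FPKM in TMAO replicates 1 to 5, against 99.16, 51.55, 39.97 and 94.71 FPKM in LPS-ALI replicates 1 to 4. Its high LPS-ALI values fell in replicate 1, coded B, and replicate 4, coded X, and the groups overlapped throughout. The difference of -0.05 ± 0.37 was smaller than its error (limma adjusted p = 0.998).

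**Figure D2:**
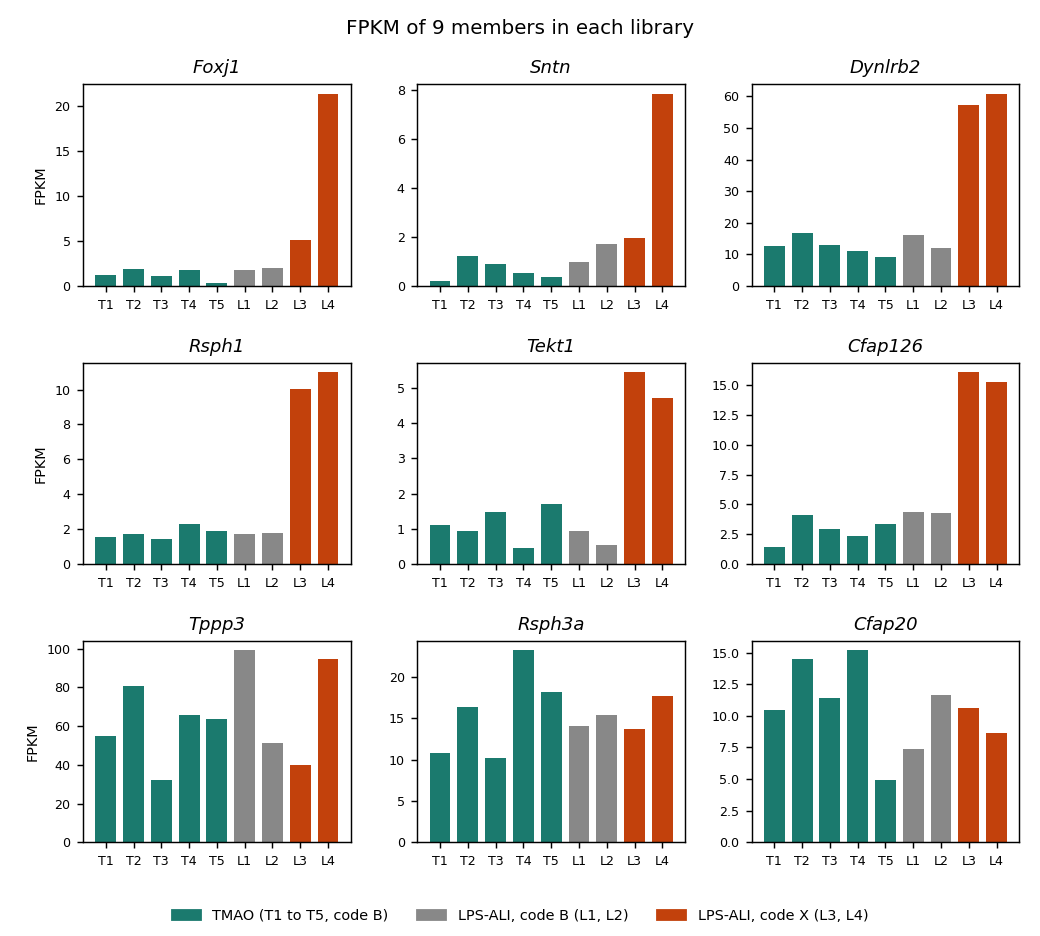
FPKM of 9 members in each library, with TMAO libraries in green, LPS-ALI libraries coded B in grey and those coded X in orange. Foxj1, Sntn, Dynlrb2, Rsph1, Tekt1 and Cfap126 had their highest pair of bars in L3 and L4, while Tppp3, Rsph3a and Cfap20 did not.

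Because many members were high in the same libraries, the bases before their starts were searched for letters that RFX and forkhead factors are known to recognize. Windows of 250 bases before a RefSeq start on GRCm38.p6 were at hand for 53 members, in 60 windows, and for all genes in 32851 windows. The RFX core GTTGCC, on either strand, was present in 33.3% of the members' windows and in 10.4% of all windows. It was found for 11 of the 25 searched members whose X-coded values were highest and for 7 of the other 28. The X-box, a fuller RFX motif that contains this core, was in 1.67% of the members' windows and 0.244% of all windows. The forkhead core GTAAACA was in 8.33% of the members' windows and 3.17% of all windows. A match is a description of letters and not a bound site. The next lines show 3 members that were high in the X-coded libraries and hold the RFX core, with RFX and forkhead cores in capitals, 5′ to 3′ on the gene's strand. They are cut at the first start site of RefSeq or GENCODE M21.

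Dynlrb2 (GRCm38.p6, plus strand, chr8:116504765-116504973): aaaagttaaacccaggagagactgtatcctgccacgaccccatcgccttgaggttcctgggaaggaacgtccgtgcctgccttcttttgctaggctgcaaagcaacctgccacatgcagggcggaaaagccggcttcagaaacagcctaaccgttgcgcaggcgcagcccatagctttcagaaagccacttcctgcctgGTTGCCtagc

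Sntn (GRCm38.p6, plus strand, chr14:13670626-13670875): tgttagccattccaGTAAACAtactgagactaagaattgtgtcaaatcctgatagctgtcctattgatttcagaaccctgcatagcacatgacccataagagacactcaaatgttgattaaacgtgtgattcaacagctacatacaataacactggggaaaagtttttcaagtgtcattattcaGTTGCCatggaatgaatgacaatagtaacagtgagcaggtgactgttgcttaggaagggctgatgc

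Tekt2 (GRCm38.p6, minus strand, chr4:126325689-126325938): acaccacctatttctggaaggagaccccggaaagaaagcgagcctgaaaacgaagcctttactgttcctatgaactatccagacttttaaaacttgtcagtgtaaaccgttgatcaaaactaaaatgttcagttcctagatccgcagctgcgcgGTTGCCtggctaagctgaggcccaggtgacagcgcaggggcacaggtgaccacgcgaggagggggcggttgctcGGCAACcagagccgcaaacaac

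Counted from the RefSeq start, the RFX core ended 46 bases before that of Dynlrb2 and 61 before that of Sntn. For Dynlrb2 the GENCODE start lies upstream of the RefSeq one, so the printed bases stop short of the RefSeq start. Tekt2 held the core on both strands. The capitals near the left end of the Sntn window are the forkhead core, 236 to 230 bases before the start.

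Axonemal dynein heavy chains, the motor subunits of the arms, were a family of low FPKM. Its 15 members averaged 0.01 to 2.55 FPKM over the 9 libraries, and Dnah8 and Dnah14 were the ones tested. Dnah5, the heavy chain of the outer arm whose loss is a leading cause of primary ciliary dyskinesia in humans, had 0.02, 0.01, 0.06, 0.03 and 0.08 FPKM in TMAO replicates 1 to 5. In LPS-ALI replicates 1 to 4 it had 0.06, 0.06, 0.20 and 0.09 FPKM. Its outer-arm partner Dnah9 reached 0.74 FPKM in TMAO replicate 5 and 0 to 0.06 in the other TMAO libraries, against 0.02 to 0.23 FPKM in LPS-ALI lungs. The deposited values are rounded to 2 decimals, so such levels are coarse. Dnah3, Dnah6 and Dnah10, which are inner-arm heavy chains, Dnah5, Dnah7c and Dnah17 had both X-coded libraries highest. Dnah7a, Dnah7b and Dnah7c are near-identical copies between which reads may be split, and their values are uncertain. Dnah7a had 0, 0.65, 0.40, 0.41 and 0 FPKM in TMAO replicates 1 to 5, against 0, 0.72, 0.44 and 2.37 FPKM in LPS-ALI replicates 1 to 4.

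Dnah8 ran the other way. This outer-arm heavy chain is best known from the sperm tail, and it had 3.90, 1.33, 2.14, 5.2 and 3.14 FPKM in TMAO replicates 1 to 5, against 2.10, 3.32, 1.07 and 0.79 FPKM in LPS-ALI replicates 1 to 4. Its lowest values were those of the X-coded libraries. The difference of 0.73 ± 0.37 did not pass the test (limma adjusted p = 0.998) and was 0.31 without those libraries and -0.08 with libraries weighted by their spread. Dnah14 had 0.39, 0, 0.56, 1.01 and 3.63 FPKM in TMAO lungs and 2.04, 1.34, 2.60 and 0.68 FPKM in LPS-ALI lungs, in replicate order. TMAO replicate 5 gave its highest value, and the difference was -0.32 ± 0.40 (limma adjusted p = 0.998), with -0.87 without that library and -0.04 without TMAO replicate 2. Dnah14 shares exon bases with Lbr on the opposite strand, and no strand setting is stated. Germ cell transcripts were near absent, with Prm1, Prm2, Tnp1, Tnp2 and Odf1 at 0 in every library. The 10 germ cell markers summed to 0.15 to 0.86 FPKM in TMAO lungs and 0 to 1.65 FPKM in LPS-ALI lungs.

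Radial spoke genes did not all show the same order of libraries. Rsph1, a spoke head protein, had 1.56, 1.72, 1.46, 2.31 and 1.88 FPKM in TMAO replicates 1 to 5, against 1.72, 1.81, 10.06 and 11 FPKM in LPS-ALI replicates 1 to 4. The B-coded LPS-ALI libraries lay inside the TMAO range and the X-coded ones far outside it. The difference was -0.86 ± 0.46 (limma adjusted p = 0.998) and 0.22 without the X-coded libraries. Rsph10b and Rsph14 were also highest in those libraries, Rsph10b with 8.05 FPKM in LPS-ALI replicate 3, 0.74 in replicate 4 and at most 0.44 elsewhere. Rsph10b shares exon bases with Pms2, which had 0.87 FPKM in LPS-ALI replicate 3 and 0.24 to 2.39 FPKM in the other libraries. The spoke head genes Rsph4a and Rsph9 each missed this order through 1 TMAO library. Rsph9 had 5.61 FPKM in TMAO replicate 5, 5.05 and 4.21 FPKM in LPS-ALI replicates 3 and 4, and 1.22 to 3.42 FPKM in the others. Rsph4a had 1.96 FPKM in LPS-ALI replicate 4, 0.36 FPKM in LPS-ALI replicate 3, 0.38 FPKM in TMAO replicate 3 and at most 0.24 FPKM elsewhere. Rsph3a and Rsph3b, mouse copies of a spoke stalk gene, were among the most abundant members in every library. Rsph3b had 7.84 to 53.14 FPKM in TMAO lungs and 28.25 to 64.02 FPKM in LPS-ALI lungs, and its difference was -0.55 ± 0.46 (limma adjusted p = 0.998). Rsph3a had 10.16 to 23.17 FPKM in TMAO lungs and 13.72 to 17.71 FPKM in LPS-ALI lungs, with a difference of 0.16 ± 0.34 (unshifted -0.01, limma adjusted p = 0.998). Reads may be split between these 2 copies, so their separate levels are uncertain.

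Ccdc39 and Ccdc40 encode the molecular ruler along the doublets, which sets where inner arms and spokes attach. Ccdc40 had 0.12, 0.42, 0.65, 0.47 and 0.20 FPKM in TMAO replicates 1 to 5, against 0.57, 0.06, 3.26 and 5.80 FPKM in LPS-ALI replicates 1 to 4. Ccdc39 had 0.08, 0, 0.12, 0.04 and 0 FPKM in TMAO lungs and 0.06, 0.11, 0.56 and 1.32 FPKM in LPS-ALI lungs. For this partner pair the values of the B-coded LPS-ALI libraries mixed with those of TMAO lungs, and the X-coded ones stood above both. Hydin, a central pair protein encoded by a very long transcript, did not exceed 0.04 FPKM in TMAO lungs or 0.13 FPKM in LPS-ALI lungs. None of these 3 genes reached the level needed for the test.

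Tektins are filament proteins bound inside the doublet microtubules. Tekt1 had 1.12, 0.94, 1.47, 0.45 and 1.70 FPKM in TMAO replicates 1 to 5, against 0.95, 0.54, 5.45 and 4.72 FPKM in LPS-ALI replicates 1 to 4. Without the X-coded libraries the Tekt1 difference of -0.47 ± 0.42 (limma adjusted p = 0.998) turned to 0.48. Tekt2 had 0.30, 0.44, 0, 0.08 and 0 FPKM in TMAO lungs and 0.44, 0.21, 2.25 and 3.39 FPKM in LPS-ALI lungs. Tekt4 had 0.19, 0.26, 0.19, 0.81 and 0 FPKM in TMAO lungs and 0.81, 0.65, 2.33 and 1.97 FPKM in LPS-ALI lungs. These 3 tektins were all highest in the X-coded libraries. Tekt5 and Tekt3, which are known mainly from the sperm flagellum, were not. Tekt5 had 0.45 to 1.61 FPKM in TMAO lungs and 0.47 to 2.11 FPKM in LPS-ALI lungs, with a difference of 0.12 ± 0.29 (unshifted -0.05, limma adjusted p = 0.998). Tekt3 stayed at or below 0.14 FPKM in all libraries.

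The 32 Cfap genes, named only for being cilia and flagella associated, were the largest family. Both X-coded libraries were highest for 14 of them. Cfap126, also called Flattop, a microtubule inner protein, had 1.46, 4.11, 2.91, 2.34 and 3.39 FPKM in TMAO replicates 1 to 5, against 4.35, 4.30, 16.07 and 15.27 FPKM in LPS-ALI replicates 1 to 4. It was the 1 tested member in which every TMAO library lay below every LPS-ALI library, a pattern of 1.36% of the genes tested. Its difference was -1.17 ± 0.44 (limma adjusted p = 0.998) and -0.30 without the X-coded libraries. The unadjusted exact permutation p of Cfap126 was 0.00794, the smallest that 9 libraries allow, and 0.143 without the X-coded libraries. Cfap69, a central pair protein, had 4.30, 5.69, 2.98, 3.09 and 0.17 FPKM in TMAO lungs and 5.55, 2.90, 14.47 and 20.29 FPKM in LPS-ALI lungs, in replicate order. Cfap43 and Cfap44, partners that in Tetrahymena tether an inner arm, were both highest in LPS-ALI replicate 3, at 4.11 and 2.36 FPKM. Cfap206, found in Tetrahymena at the base of a radial spoke, was highest in LPS-ALI replicate 4 at 4.79 FPKM.

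In the 3 most abundant Cfap genes, Cfap36, Cfap298 and Cfap20, the X-coded libraries were not both highest. Cfap36 and Cfap298 were, like Foxj1, highest in LPS-ALI replicate 4 and lowest in TMAO replicate 5. Cfap36 had 8.07 to 22.00 FPKM in TMAO lungs and 12.56 to 33.71 FPKM in LPS-ALI lungs, with its lowest LPS-ALI value in X-coded replicate 3. Its difference was -0.14 ± 0.39 (limma adjusted p = 0.998). Cfap298, a factor in dynein arm assembly, had 14.26, 15, 10.97, 12.10 and 8.08 FPKM in TMAO lungs and 15.99, 15.39, 14.89 and 25.62 FPKM in LPS-ALI lungs. LPS-ALI replicate 4 alone was high, and the difference was -0.36 ± 0.33 (limma adjusted p = 0.998, unadjusted exact permutation p = 0.0397, and 0.143 without the X-coded libraries). Cfap20, a protein of the inner junction of the doublet, had 10.42, 14.52, 11.38, 15.17 and 4.95 FPKM in TMAO lungs and 7.39, 11.63, 10.62 and 8.64 FPKM in LPS-ALI lungs. TMAO replicate 5 was the lowest of all 9, and the groups overlapped around a difference of 0.32 ± 0.37 (limma adjusted p = 0.998). Cfap97, which shares exon bases with Snx25 on the opposite strand, also overlapped, with 1.10 to 4.45 FPKM in TMAO lungs, 2.12 to 2.68 FPKM in LPS-ALI lungs and a difference of 0.25 ± 0.33 (limma adjusted p = 0.998).

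**Figure D3:**
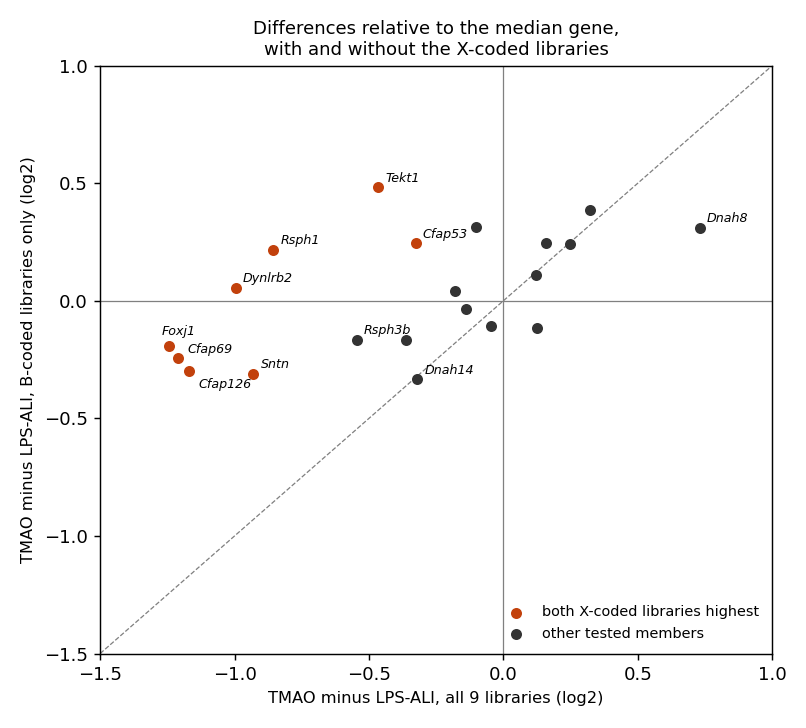
Difference between TMAO and LPS-ALI lungs for the 21 tested members, relative to the median gene, over all 9 libraries (horizontal axis, log2) and over the 7 B-coded libraries (vertical axis, log2). The 8 members highest in both X-coded libraries (orange) range from -0.33 for Cfap53 to -1.24 for Foxj1 on the horizontal axis and lie between -0.31 and 0.48 on the vertical axis.

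The X-coded libraries were not copies of each other in these genes. Of 41 members with at least 1 FPKM in either of them, 8 were at least 2-fold higher in LPS-ALI replicate 3, 14 were at least 2-fold higher in replicate 4, and 19 lay within 2-fold. Cfap100, whose counterpart in Chlamydomonas modifies inner arms, had 11.47 FPKM in replicate 3 and 0.87 FPKM in replicate 4, with at most 0.24 FPKM in the other 7 libraries. Cfap45, a microtubule inner protein, had 1.47 FPKM in replicate 3 and 11 FPKM in replicate 4, with 0.42 to 2.87 FPKM in the others. Cfap100 shares exon bases with Zxdc on the opposite strand, which had 1.73 FPKM in replicate 3 and 0.37 to 3.62 FPKM elsewhere. The number of members above 0 was 65 and 64 in replicates 3 and 4 and 41 to 58 in the other libraries, and these were also the 2 deepest libraries. Counts of detected members move with depth. The part of depth in them was not tested.

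Other genes of the motile axoneme, taken from lists of known parts, were often highest in the same libraries. For radial spoke, central pair and nexin genes with other symbols, both X-coded libraries were highest for 22 of 37 genes above 0. Their summed level was 17.9 to 34.5 FPKM in TMAO lungs, against 38.8, 31.8, 63.1 and 72.8 FPKM in LPS-ALI replicates 1 to 4. Of the 6 tested, 0 passed the adjusted threshold and 2, Nme5 and Iqcg, had an unadjusted limma p under 0.05. Iqcg, a regulatory complex subunit, had 1.34 ± 0.53 FPKM in TMAO lungs and 2.62 ± 0.56 FPKM in LPS-ALI lungs (SD, n = 5 and n = 4). Among ciliated cell markers outside the set, 13 of 22 genes were highest in both X-coded libraries, and 0 of 15 tested passed. The summed level of this list did not follow that count, with 523, 554, 535, 670 and 181 FPKM in TMAO replicates 1 to 5, against 687, 517, 420 and 492 FPKM in LPS-ALI replicates 1 to 4. The average log2 level of its 15 tested genes, against the median gene of each library, did. It was 0.99 and 0.77 in LPS-ALI replicates 3 and 4, 0.61 in TMAO replicate 5 and -0.58 to 0.11 in the other libraries. Fam183b had 1.58 ± 0.77 and 1110017D15Rik 2.38 ± 1.78 FPKM in TMAO lungs, against 9.20 ± 7.26 and 8.19 ± 6.84 FPKM in LPS-ALI lungs (SD, n = 5 and n = 4). Dynein assembly and docking factors had 10 of 20 genes highest in both X-coded libraries, with 0 of 6 tested past the threshold.

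In the remaining cilia-related lists that order was found in 1 of 28 to 4 of 16 genes, where the share of all genes above 0 was 5.01%. Intraflagellar transport genes, which build primary as well as motile cilia, had 1 of 28 genes highest in both X-coded libraries. Their sum was 102 to 251 FPKM in TMAO lungs and 167.2 to 264 FPKM in LPS-ALI lungs, and 0 of 23 tested passed. Regulators of multiciliated cell differentiation other than Foxj1 had 3 of 17 genes above 0 with that order and 0 of 7 tested past the threshold. Dynein light and intermediate chains with other symbols had 4 of 16, and 0 of 11 tested passed. Dnaic2, the outer-arm intermediate chain, had 0.168 ± 0.079 FPKM in TMAO lungs and 0.675 ± 0.561 FPKM in LPS-ALI lungs, with 1.33 and 0.94 FPKM in the X-coded libraries. Its partner Dnaic1 had 3.68 ± 3.40 FPKM in TMAO lungs and 2.45 ± 1.14 FPKM in LPS-ALI lungs (SD, n = 5 and n = 4).

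**Figure D4:**
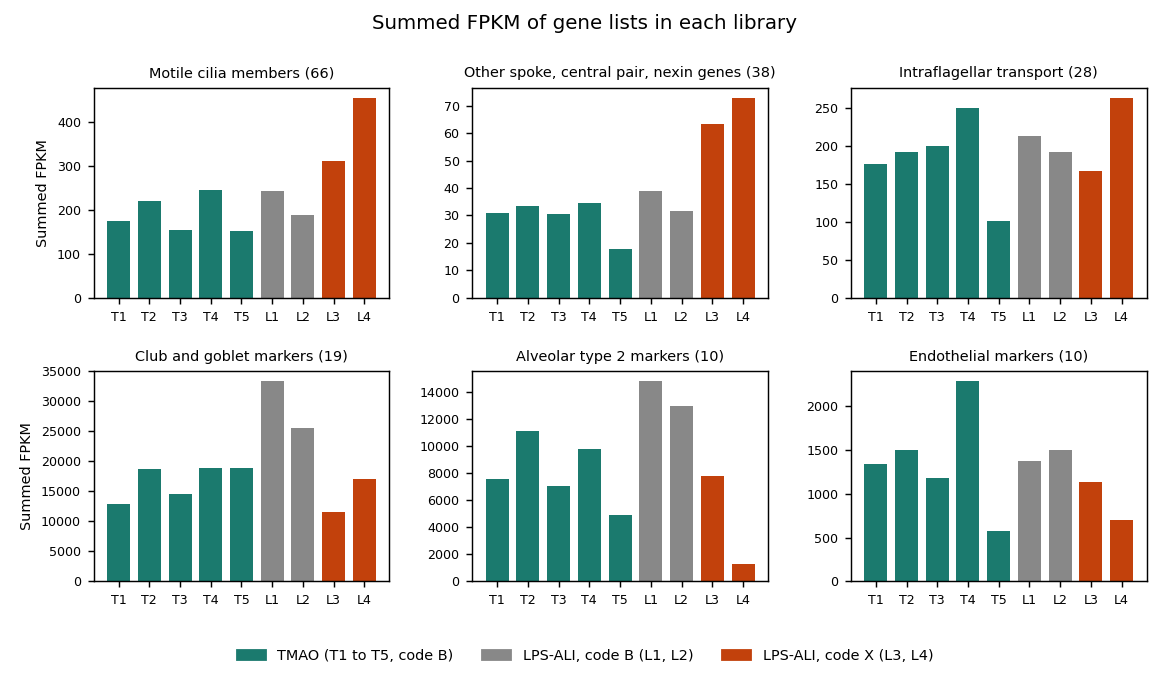
Summed FPKM of the 66 members and of 5 marker lists in each library, with TMAO libraries in green, LPS-ALI libraries coded B in grey and those coded X in orange. L3 and L4 stood highest for the members and for other spoke, central pair and nexin genes, but not together for intraflagellar transport, club and goblet, alveolar type 2 or endothelial genes.

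Markers of other lung cells were counted in the same way. Both X-coded libraries were highest in 5.01% of all genes above 0, and counts in lists this short cannot be told from that share. Of 19 club and goblet cell markers, 0 were highest in both X-coded libraries. Their summed level was 12960 to 18926 FPKM in TMAO lungs, against 33345, 25595, 11591 and 17067 FPKM in LPS-ALI replicates 1 to 4, so the X-coded libraries were the lowest of the LPS-ALI group. Scgb1a1, the club cell secretoglobin, had 14375 ± 2491 FPKM in TMAO lungs and 19258 ± 8535 FPKM in LPS-ALI lungs (SD, n = 5 and n = 4). The same count was 0 of 10 for alveolar type 2, 0 of 10 for alveolar type 1, 0 of 10 for endothelial and 0 of 5 for mesothelial markers. It was 2 of 10, Krt19 and Elf3, for basal and general epithelial markers above 0, 1 of 6 for neuroendocrine markers and 1 of 8 for neutrophil markers. The epithelial markers summed to 104, 129, 144, 131 and 47.7 FPKM in TMAO replicates 1 to 5, against 183, 145, 132 and 224 FPKM in LPS-ALI replicates 1 to 4. Of the 7 tested, 7 lay below the median gene, with a median difference of -0.56, or -0.33 without the X-coded libraries, and 0 passed the adjusted threshold. Krt19, a keratin of simple epithelia, had 3.89 to 19.06 FPKM in TMAO lungs and 16.52 to 37.75 FPKM in LPS-ALI lungs. The basal cell keratins Krt5 and Krt14 were at 0 in every library. Neutrophil markers summed to 7682 to 14706 FPKM in TMAO lungs and 7557 to 20579 FPKM in LPS-ALI lungs. The part of cell content in the level of the motile cilia genes was not tested.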

How the data were processed

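RNA from 9 mouse lungs was sequenced and the authors deposited 1 table of FPKM values per gene, rounded to 2 decimals. Per the submitters' processing notes, fastp, HISAT2, SAMtools and featureCounts were used with mm10. The sources used here give neither versions nor the strand setting. Absolute depth is unknown, and relative depth was read from ratios of low values. Genes with at least 1 FPKM in at least 4 libraries entered a linear model on log2(FPKM + 1) in limma 3.58.1 (R 4.3.3), with a mean-variance trend and Benjamini-Hochberg adjustment at 0.05, and the fit was tested on simulated data. Exact two-sided permutation tests over the libraries were also computed gene by gene, and their p-values are not adjusted. The p-values measure the spread between these mice and belong to the unshifted differences. Of the gene IDs, 52125 matched GENCODE M21, which gave positions and exon overlaps. Promoter sequences came from RefSeq on GRCm38.p6.

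The members and lists were chosen with earlier results of these data known. Named genes were the members listed by name, the 3 highest by mean FPKM in each family, the up to 4 tested members with the smallest p in each direction, and up to 3 genes of each list described. Cfap43, Cfap44, Cfap45, Cfap69, Cfap100, Cfap206, Dnah5, Dnah9, Rsph4a, Rsph9, Rsph10b, Tekt2, Tekt3, Dnaic1, Dnaic2 and Scgb1a1 were named after their values were seen. Alternatives covered the pseudocount, filter, scaling, variance model, replicate block and left-out libraries.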

Additional observations from a re-analysis of the deposited data

Results flagged for a closer look

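In 5 of 46 groups of values checked, 1 library lay far from the rest of its group. The share expected by chance was taken as 5% and was not measured on these values. The groups share the same libraries and are not independent, so the count is not a test. Foxj1 had 21.32 FPKM in LPS-ALI replicate 4 and 1.79 to 5.04 FPKM in the other LPS-ALI libraries. Sntn had 7.83 FPKM in that same library and 0.96 to 1.94 FPKM in the others. Cfap298 had 25.62 FPKM there and 14.89 to 15.99 FPKM in the others. Dnah14 had 3.63 FPKM in TMAO replicate 5 and 0 to 1.01 FPKM in the other TMAO libraries. The motile cilia score, which sets the average log2 level of the 21 members tested against the median gene of the same library, was 0.32 in TMAO replicate 5 and -0.77 to -0.47 in the other TMAO libraries. That library had the lowest summed member level of all, 151 FPKM, and the fewest genes of at least 1 FPKM, 8846. The part of depth in its score was not tested.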

How the results depend on the processing

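No member passed the adjusted threshold under any alternative run, while over all genes tested limma called 51 with library weights and 0 to 3 when single libraries were left out, with 3 without TMAO replicate 4 and 1 without LPS-ALI replicate 3. The unshifted Foxj1 difference was -1.23 with the replicate block (exact permutation p = 0.125, the smallest that 4 pairs can give), -0.40 without the X-coded libraries (exact permutation p = 0.286), -0.58 without LPS-ALI replicate 4 and TMAO replicate 5 (exact permutation p = 0.0571), and -1.76 to -0.76 without single libraries (exact permutation p = 0.0179 to 0.0571). Same-numbered mice did not deviate together (correlations 0.06, -0.01, -0.03 and -0.13). The labels do not say whether the numbers pair the mice, and 4 correlations cannot settle it. Without the X-coded libraries the score difference was 0.037, the members' median difference 0.040 and the difference in summed FPKM -27.1. Without single libraries these ranged from -0.52 to -0.18, from -0.45 to -0.14 and from -148 to -59.2.

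Of 449 differences of 22 named genes under alternatives, 29 changed sign, and the cause was not tested. With library weights these were Cfap36 0.047, Tekt1 0.18, Dnah8 -0.082, Tekt5 -0.16, Rsph3a -0.21 and Dnaic1 -0.16. With the replicate block they were Tekt5 -0.15, Rsph3a -0.12 and Dnaic1 -0.23. Without the X-coded libraries they were Tekt1 0.48, Rsph1 0.22, Dynlrb2 0.056, Tekt5 -0.11 and Lrrc23 0.11. Without LPS-ALI replicate 4 and TMAO replicate 5 they were Cfap36 0.066, Tekt5 -0.21, Rsph3a -0.095 and Dnaic1 -0.21. Tppp3 was 0.015 at a pseudocount of 0.1 and 0.022 with median-of-ratios scaling. Without single libraries, or without that pair, the ranges that crossed 0 were -0.28 to 0.068 for Cfap36, -0.23 to 0.74 for Dnaic1, -0.12 to 0.31 for Rsph3a, -0.55 to 0.048 for Scgb1a1, -0.21 to 0.29 for Tekt5 and -0.30 to 0.18 for Tppp3. A filter on a mean FPKM of 5 left Foxj1 out and gave it no value. Levels under 1 FPKM, as in 23 members in every library, are limited by depth and rounding.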

Other observations

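Genes outside the motile cilia set also shared its sharpest pattern, and those named here were picked after their values were seen. Among the 11817 genes tested, 22 (0.186%) had both X-coded LPS-ALI libraries at least 2-fold above every other library. Of these, 16 were not members and 6 were (27.3%), and the 6 made up 28.6% of tested members. Ccdc153, a ciliated cell marker, had 5.40 to 10.49 FPKM in TMAO lungs, against 12.59, 8.6, 26.03 and 25.90 FPKM in LPS-ALI replicates 1 to 4. Mapk15, a kinase known to act in ciliogenesis, had 0 to 1.95 FPKM in TMAO lungs, against 0.68, 0.23, 11.18 and 4.74 FPKM in LPS-ALI replicates 1 to 4.

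Genes with no known tie to motile cilia were also among the 22. Nkg7, a granule protein of cytotoxic lymphocytes, had 0 to 3.35 FPKM in TMAO lungs, against 1.95, 2.90, 8.57 and 11.28 FPKM in LPS-ALI replicates 1 to 4. Trbc1, a T cell receptor constant region, had 0.23 to 1.57 FPKM in TMAO lungs, against 1.96, 1.30, 4.12 and 4.78 FPKM in LPS-ALI lungs. Ppp1r15a, a stress-induced phosphatase subunit, had 13.79 to 28.99 FPKM in TMAO lungs, against 35.39, 41.08, 134.79 and 130.03 FPKM in LPS-ALI lungs. These genes carry no test of their own.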
